A study of Mus musculus with 12 samples.

Results

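The genes described are 30 genes of cholesterol and fatty acid synthesis with their regulators, taken by symbol from a table of 34174 genes. Of these, 29 were found under their symbol and Msmo1 under its gene ID, since the table lists it as Sc4mol. All 30 were among the 24151 genes tested. RNA had been sequenced from cultures titled as cardiac stem cells, grown from C57BL/6 mice on gelatin in medium with 10% serum at 21% oxygen. Their 2 groups are wild-type cells and cells titled Wcre, taken here as the c-kitCre cells of the study's design text, in which Cre is knocked in at the Kit locus. The labels give neither the number of Kit alleles that carry Cre, nor the age or number of the mice, nor whether each numbered culture had an animal of its own. The p-values thus reflect only how far these cultures vary, which may be technical. Each group has 3 cultures, each sequenced as 2 libraries that the deposited table merges, so n = 3 cultures per group throughout.

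Cholesterol is built from acetyl-CoA through mevalonate, the isoprenoid farnesyl diphosphate, squalene and lanosterol, and lanosterol is then trimmed and its double bonds moved to give cholesterol. Fatty acids are built from the same acetyl-CoA by acetyl-CoA carboxylase and fatty acid synthase, then elongated and desaturated. Both routes are driven by sterol regulatory element binding proteins, membrane-bound transcription factors. Scap escorts them to the Golgi for cleavage when membrane sterol is low, and the Insig proteins hold them back when it is high. Most genes of the list are textbook targets of these factors, which act at promoters together with the factor NF-Y, a protein that binds CCAAT boxes.

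Promoter windows of RefSeq on build GRCm38.p6, from 250 bases before to 50 after a start, were held for 24 of the 30 genes, in 32 windows. Both strands were searched. The letters TCACNCCAC, a core form of the sterol regulatory element, occurred in 1 of these 24 genes (4.17%), Hmgcs1, with its first base at position -137 from the start, against 1.44% of 27025 mouse genes with a window and 1.42% of 12857 such genes that were tested. The letters CCAAT occurred in 20 of the 24 (83.3%), against 41.1% of all genes with a window and 42.1% of those tested. The letters GGGCGG, a GC box, occurred in 20 of the 24 (83.3%), against 38.2% and 59.4%. A match describes the letters in the window and is not a measured binding site. The 4 windows below are shown because Hmgcs1 has the one sterol element match, Mvk has the most CCAAT matches in 1 window, and Cyp51 and Fasn are the sterol gene and the fatty acid gene whose levels are described first in their groups below. Capitals mark the sterol element core and CCAAT, read as ATTGG on the other strand.
Hmgcs1: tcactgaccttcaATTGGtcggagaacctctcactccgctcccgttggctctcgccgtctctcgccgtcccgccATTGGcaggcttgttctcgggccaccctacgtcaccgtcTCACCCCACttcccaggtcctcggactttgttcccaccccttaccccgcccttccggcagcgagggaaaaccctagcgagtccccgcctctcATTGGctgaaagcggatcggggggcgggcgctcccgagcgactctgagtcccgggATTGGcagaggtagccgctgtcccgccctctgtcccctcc
Mvk: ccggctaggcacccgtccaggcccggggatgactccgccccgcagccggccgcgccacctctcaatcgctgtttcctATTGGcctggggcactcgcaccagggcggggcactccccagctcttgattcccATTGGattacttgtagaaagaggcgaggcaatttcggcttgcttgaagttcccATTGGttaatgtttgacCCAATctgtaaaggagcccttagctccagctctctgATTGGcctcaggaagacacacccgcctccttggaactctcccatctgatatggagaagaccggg
Cyp51: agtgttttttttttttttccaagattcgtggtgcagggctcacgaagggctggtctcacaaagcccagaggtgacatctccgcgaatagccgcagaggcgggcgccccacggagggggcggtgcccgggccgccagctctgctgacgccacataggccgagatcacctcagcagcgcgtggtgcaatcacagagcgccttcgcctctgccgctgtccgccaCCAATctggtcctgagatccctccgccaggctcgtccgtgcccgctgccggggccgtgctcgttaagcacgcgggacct
Fasn: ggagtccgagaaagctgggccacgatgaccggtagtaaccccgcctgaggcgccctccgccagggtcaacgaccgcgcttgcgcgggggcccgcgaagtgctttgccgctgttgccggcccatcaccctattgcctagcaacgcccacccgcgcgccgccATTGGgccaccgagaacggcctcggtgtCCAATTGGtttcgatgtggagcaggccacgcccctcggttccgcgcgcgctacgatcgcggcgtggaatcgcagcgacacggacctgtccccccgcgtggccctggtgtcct
The windows lie at chr13:119690101-119690400 on the plus strand (Hmgcs1), chr5:114444019-114444318 on the plus strand (Mvk), chr5:4104648-4104947 on the minus strand (Cyp51) and chr11:120824498-120824797 on the minus strand (Fasn). Mvk had 5 CCAAT matches, Hmgcs1 had 4, Fasn had 3 and Cyp51 had 1. In Fasn, 2 of the matches overlap as the palindrome CCAATTGG. No sterol element core overlaps a CCAAT match.

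Levels are given as scaled reads, the deposited raw value of a culture times the factor by which the authors' normalization scales that culture. Differences are on the log2 scale, c-kitCre minus wild-type, with a standard error (SE) and an adjusted p from limma over the 24151 genes. A gene is said to have risen or fallen where that adjusted p was under 0.05. Each culture had a summed raw value between 22371439 and 35963488, the lowest in c-kitCre culture 2, whose scale factor of 1.517 was the highest. Kit stood at 1.17 to 3.38 scaled reads in cultures labelled wild-type, against 1603 to 1738 in cultures labelled c-kitCre. Kit was thus far higher in the group taken here to carry the Cre insertion at the Kit locus. Whether the labels are exchanged cannot be checked here. Below, wild-type and c-kitCre cultures are those labelled so, and every direction rests on these labels. Within their groups, wild-type culture 1 and c-kitCre culture 2 stood apart, lying over 1.5 times above or below the mean of the other 2 cultures in 32.0% and 28.2% of 13456 genes averaging at least 50 scaled reads, against 6.13% to 10.4% for the other 4 cultures.

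Of the 30 genes, 12 passed the test (40.0%), against 35.5% of all genes tested, so the share of changed genes lay near the background. Pmvk, Insig2 and Srebf1 rose, 3 genes in all, where the background of rises was 16.2%. Mvk, Fdps, Sqle, Cyp51, Ebp, Sc5d, Fasn, Scd1 and Elovl6 fell, 9 genes in all, where the background of falls was 19.3%, and 18 genes did not pass. The groups did not overlap for 18 of the 30 (60.0%), 5 with c-kitCre higher and 13 with c-kitCre lower, against 49.5% of all genes. The median log2 difference was -0.48 over the list and 0.04 over all genes tested, or -0.14 over the 13456 genes averaging at least 50 scaled reads. Counts in the role groups below are to be read against these shares of all genes. In bulk RNA, fewer cells of a type and less RNA per cell cannot be told apart.

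The split of directions moved with the scaling. Centring each culture on its median over all genes took the all-gene median from 0.04 to -0.31 and gave 2 rises and 17 falls among the 30 genes, where 47.3% of all genes passed. Of the 24151 genes tested, 2821 then rose and 8605 fell, against 3907 and 4671 in the main fit. Centring over genes averaging at least 50 scaled reads, a choice made after seeing the data, moved the all-gene median to 0.26. It gave 5 rises and 9 falls, where 38.4% of all genes passed (5488 rises and 3794 falls). Without c-kitCre culture 2 there were 3 rises and 13 falls, where 34.5% of all genes passed (3922 rises and 4407 falls). Without wild-type culture 2 there were 1 rise and 7 falls (23.5% of all genes), and without wild-type culture 3, 1 rise and 8 falls (24.7%). Over all genes there were 2496 rises and 3189 falls without wild-type culture 2, and 2551 and 3419 without wild-type culture 3. The 9 falls of the main fit all kept a negative difference under these scalings, and the 3 rises a positive one.

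**Figure D1:**
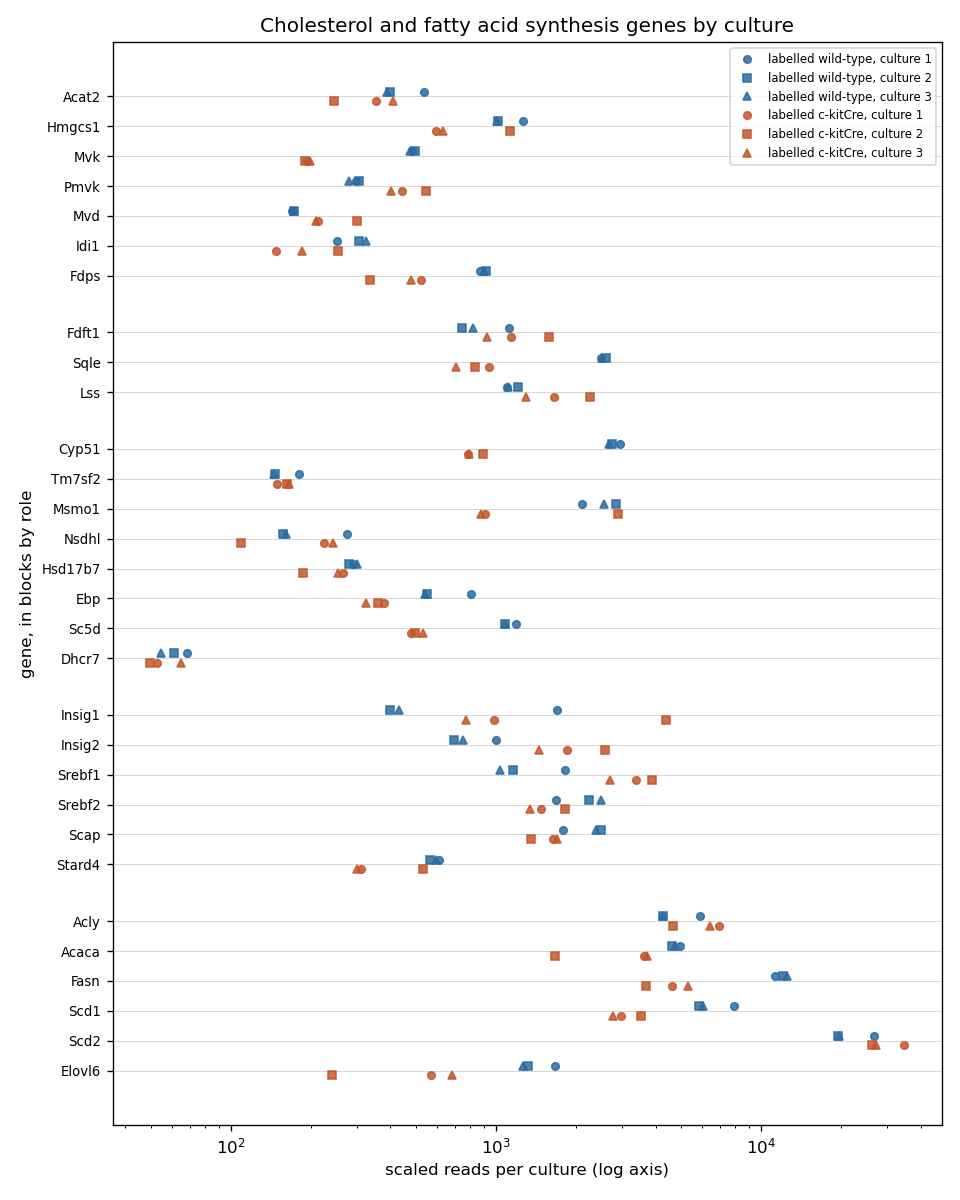
Scaled reads of the 30 genes in each of the 6 cultures, on a log axis, with the genes in blocks by role; blue marks are cultures labelled wild-type, orange marks those labelled c-kitCre, and the shape gives the culture number. Cyp51, Sqle, Mvk, Sc5d and Fasn show 2 separate clusters of 3 cultures, while c-kitCre culture 2 lies away from cultures 1 and 3 for Insig1 and Msmo1.

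Compared per kilobase of the longest annotated transcript, Scd2, Scd1, Fasn and Acly held the highest levels of the list in cultures labelled wild-type. The other fatty acid genes, Acaca and Elovl6, were not among them. Scd2 stood at 4040 scaled reads per kilobase, Scd1 at 1366, Fasn at 1190 and Acly at 1089, ahead of the sterol enzymes Msmo1 at 843 and Cyp51 at 709. Dhcr7 was lowest at 21.8 scaled reads per kilobase. In cultures labelled c-kitCre, Scd2 again led at 5384 per kilobase and Acly followed at 1354. The regulators Srebf1 at 773, Insig1 at 760 and Insig2 at 727 came next, above Scd1 at 639 and Fasn at 452. The rank of Insig1 rests on c-kitCre culture 2: over cultures 1 and 3 alone it stood at 326 per kilobase, below Scd1 at 592 and Fasn at 494, while Srebf1 at 706 and Insig2 at 613 stayed above both.

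The mevalonate arm turns acetyl-CoA into farnesyl diphosphate. Of its 7 genes, 2 fell, 1 rose and 4 did not pass, and the median log2 difference was -0.53. Under median centring over all genes 5 fell and none rose (median -0.89), and without c-kitCre culture 2, 4 fell and 1 rose (median -0.82). Over all genes tested, 8605 fell under that centring, against 4671 in the main fit. Under centring over genes of at least 50 scaled reads the median was -0.32. Mvk, mevalonate kinase (chromosome 5, 114444269 to 114460591, build mm10), was at 481, 495 and 475 scaled reads in cultures labelled wild-type, against 193, 191 and 199.5 in cultures labelled c-kitCre. The 2 groups were far apart and each was tight, with 484 ± 10.3 against 195 ± 4.51 (SD). Mvk fell to 40.2% of its wild-type level, a log2 difference of -1.31 ± 0.14 (SE, limma adjusted p = 0.00093).

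The next enzyme in the chain moved the other way. Pmvk, phosphomevalonate kinase, stood at 296, 305 and 279 scaled reads in cultures labelled wild-type, against 444, 545 and 403 in cultures labelled c-kitCre, without overlap. Its level rose to 158% of wild-type (log2 difference 0.65 ± 0.17, limma adjusted p = 0.0249). That call was lost under median centring over all genes (adjusted p = 0.216) and without wild-type culture 2 (0.0737), wild-type culture 3 (0.0882) or c-kitCre culture 1 (0.0628). Mvd, the decarboxylase that follows Pmvk, stood at 170.2, 173 and 172 scaled reads against 213, 299 and 209.9, a log2 difference of 0.47 ± 0.21 that did not pass (limma adjusted p = 0.134). Its groups did not overlap, and c-kitCre culture 2 was the highest.

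Fdps, which makes farnesyl diphosphate, the last common step to sterols and isoprenoids, stood at 871, 921 and 904 scaled reads in cultures labelled wild-type, against 522, 334 and 479 in cultures labelled c-kitCre. It fell to 49.5% (log2 difference -1.04 ± 0.19, limma adjusted p = 0.00772). All 3 c-kitCre cultures lay below all wild-type cultures, with c-kitCre culture 2 the lowest. Annotated exons of Fdps share 26.7% of their bases with the gene model Gm43738 on the same strand.

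For 3 genes of the arm the difference was negative and did not pass. Hmgcs1, the cytosolic synthase that makes HMG-CoA and the gene with the sterol element match shown above, stood at 1265, 1015 and 1008 scaled reads against 596, 1130.0 and 632 (log2 difference -0.53 ± 0.27, limma adjusted p = 0.176). Its c-kitCre cultures 1 and 3 lay below all wild-type cultures and culture 2 lay among them. Without culture 2 the log2 difference was -0.83 (limma adjusted p = 0.015). Idi1, the isomerase of isopentenyl diphosphate, showed the same arrangement, with 252, 306 and 324 scaled reads against 148, 253 and 185. Its log2 difference was -0.62 ± 0.25 (limma adjusted p = 0.106), and -0.82 without c-kitCre culture 2 (adjusted p = 0.0342). Idi1 is 100% identical over 684 bases to the processed pseudogene Gm13502, which had a mean of 35.9 scaled reads. Exons of Hmgcs1 share 12.1% of their bases with Gm48342 on the opposite strand. Acat2, the cytosolic thiolase that starts the arm, stood at 537, 399 and 389.6 scaled reads against 354, 245 and 411, with overlapping groups (log2 difference -0.41 ± 0.25, limma adjusted p = 0.248). Its counts are uncertain, since Acat2 shares 97.7% identity over 1477 bases with Acat3, which had a mean of 441 scaled reads. It also shares 98.7% identity over 445 bases with Tcp1, which had a mean of 23384.

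The middle of the pathway joins farnesyl units to squalene and closes them to lanosterol. Of its 3 genes only Sqle passed, and it fell. Sqle, squalene epoxidase, the second rate-controlling enzyme of the pathway (chromosome 15, 59315077 to 59331192), was at 2484, 2609 and 2521 scaled reads in cultures labelled wild-type, against 941, 830.5 and 705 in cultures labelled c-kitCre. It fell from 2538 ± 64.3 to 825 ± 118 scaled reads (SD), which is 32.5% of the wild-type level (log2 difference -1.63 ± 0.14, limma adjusted p = 0.000419). No c-kitCre culture came near the wild-type range.

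The enzymes on either side of Sqle had positive differences that did not pass. Fdft1, squalene synthase, stood at 1122, 744 and 823 scaled reads against 1141, 1586 and 926 (log2 difference 0.43 ± 0.25, limma adjusted p = 0.235), with overlapping groups. Fdft1 exons share 774 bases, 18.3% of their length, with Ctsb on the opposite strand, a gene with a mean of 15256 scaled reads. Whether the authors' counting used strand is not given in the sources used here, so the Fdft1 values may hold Ctsb reads. Lss, which closes the ring to lanosterol, stood at 1101, 1208 and 1108 scaled reads against 1653, 2259.6 and 1304 (log2 difference 0.57 ± 0.21, limma adjusted p = 0.0798). Its groups did not overlap, and c-kitCre culture 2 was the highest. The Lss difference passed without c-kitCre culture 3 (adjusted p = 0.036), with quantile normalization (0.0239) and with centring over genes of at least 50 scaled reads (0.029). It was smaller without c-kitCre culture 2, at 0.37 (adjusted p = 0.105), and under median centring over all genes, at 0.22 (0.443).

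Of the 8 genes that carry lanosterol to cholesterol, 3 fell, none rose and 5 did not pass, with a median log2 difference of -0.57. That median was -0.92 under median centring over all genes and -0.35 under centring over genes of at least 50 scaled reads. Cyp51, the demethylase that takes the first step from lanosterol (chromosome 5, 4081145 to 4104746), had the largest negative log2 difference of the 30 genes. It stood at 2944, 2748 and 2665 scaled reads in cultures labelled wild-type, against 785, 895 and 788 in cultures labelled c-kitCre, a fall from 2786 ± 143 to 823 ± 62.4 (SD). That is 29.5% of the wild-type level (log2 difference -1.76 ± 0.11, limma adjusted p = 0.000181). Exons of Cyp51 share 3.76% of their bases with Akap9 on the opposite strand.

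The late desaturase fell with it. Sc5d, which sets a double bond in the sterol ring near the end of the route (chromosome 9, 42251595 to 42264256), was at 1192, 1081 and 1082 scaled reads against 479.8, 493 and 529, and fell to 44.8% (log2 difference -1.16 ± 0.11, limma adjusted p = 0.000758). Neither group spread by more than a small part of the gap between them. Ebp, the isomerase that moves a ring double bond, stood at 807, 548 and 542 scaled reads against 379, 359 and 323, and fell to 56.0% (log2 difference -0.81 ± 0.20, limma adjusted p = 0.0214). Wild-type culture 1 was the highest. The Ebp call was lost without wild-type culture 2 (adjusted p = 0.0505) and without c-kitCre culture 1 (0.0547), 2 (0.0602) or 3 (0.0779).

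Msmo1, a sterol methyl oxidase, was the least even sterol gene across cultures. It stood at 2114, 2829.5 and 2562 scaled reads in cultures labelled wild-type, against 908, 2896 and 879.9 in cultures labelled c-kitCre. The c-kitCre cultures 1 and 3 were below every wild-type culture, and culture 2 was above them all. The log2 difference was -0.91 ± 0.47 (limma adjusted p = 0.188) and, without c-kitCre culture 2, -1.47 (adjusted p = 0.00443). The longest Msmo1 transcript also holds a stretch of about 200 bases that is over 95% identical to stretches in several other transcripts.

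The other 4 genes of these steps showed overlapping groups or small differences. Hsd17b7, a sterol ketoreductase, stood at 288, 279 and 300.0 scaled reads against 265, 187 and 253, without overlap (log2 difference -0.32 ± 0.19, limma adjusted p = 0.257). Nsdhl, the decarboxylating dehydrogenase, stood at 274, 157 and 162 scaled reads against 225, 109 and 243 (log2 difference -0.08 ± 0.40, limma adjusted p = 0.899). Wild-type culture 1 was high and c-kitCre culture 2 low, and the sign of the Nsdhl difference turned without either of them. Tm7sf2, a sterol reductase, stood at 181, 147 and 145 scaled reads against 149, 163 and 166 (log2 difference 0.02 ± 0.20, limma adjusted p = 0.943), and shares 12.1% of its exon bases with Vps51 on the same strand. Dhcr7, the last reductase of the route, stood at 68.5, 61.1 and 54.4 scaled reads against 52.8, 49.6 and 64.8 (log2 difference -0.14 ± 0.27, limma adjusted p = 0.711).

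**Figure D2:**
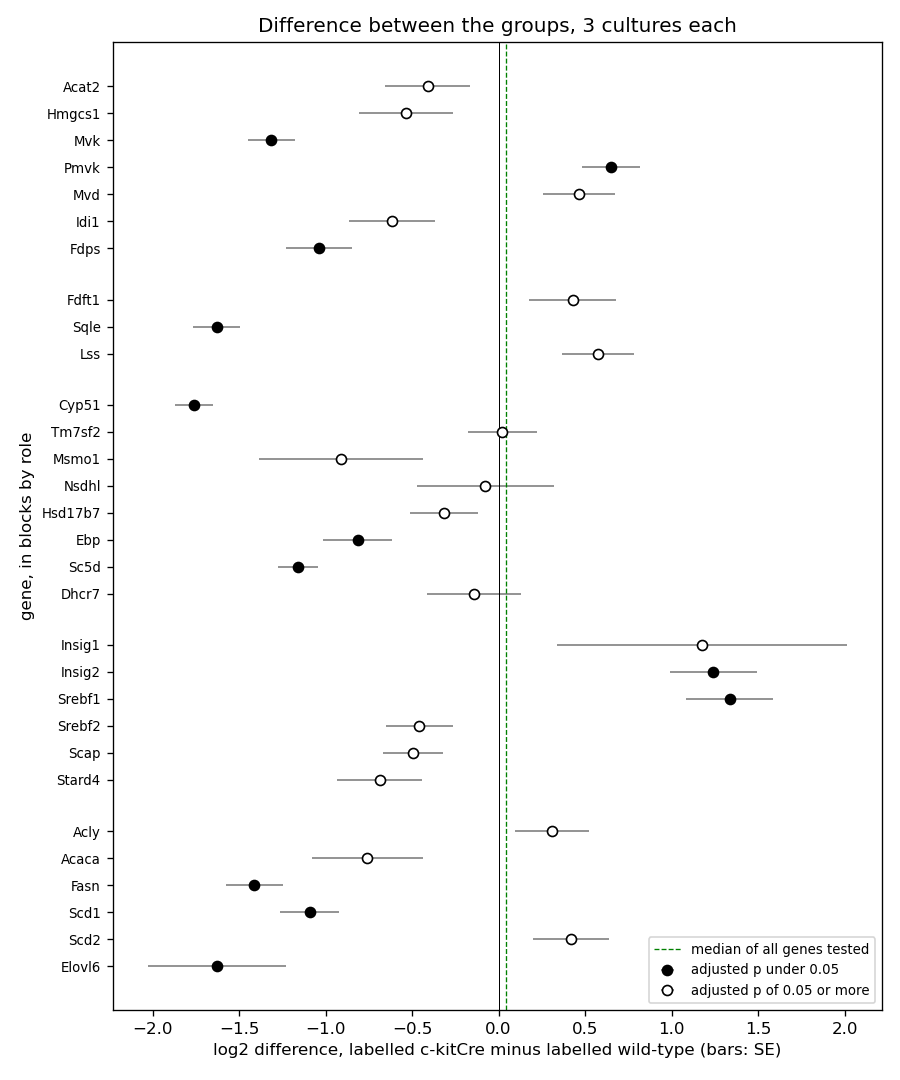
Log2 difference of each of the 30 genes, c-kitCre minus wild-type, with bars of 1 SE; filled points have a limma adjusted p under 0.05, and the dashed line is the median of all genes tested at 0.04. Filled points on the left include Cyp51 at -1.76 and Sqle at -1.63, those on the right are Srebf1, Insig2 and Pmvk, and the longest bar is that of Insig1.

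Of 6 genes of sterol sensing and transport, 2 rose and 4 did not pass, with a median log2 difference of 0.36. Under median centring over all genes 3 of them fell, and 1 did with scaling to the summed raw values or without c-kitCre culture 2, while 2 rose in each of these settings. The median was 0.01 under that centring and 0.00 without c-kitCre culture 2. With scaling to the summed raw values, 8935 of all genes tested passed. Srebf1, which encodes the factor most tied to fatty acid genes (chromosome 11, 60199089 to 60222581), was at 1824, 1164 and 1039 scaled reads in cultures labelled wild-type, against 3368, 3895 and 2705 in cultures labelled c-kitCre. It rose 2.48-fold (log2 difference 1.34 ± 0.25, limma adjusted p = 0.00826), with all c-kitCre cultures above all wild-type ones and wild-type culture 1 the highest of its group. Srebf2, which encodes the factor most tied to sterol genes, stood at 1682, 2248 and 2488 scaled reads against 1484, 1818 and 1344 (log2 difference -0.46 ± 0.19, limma adjusted p = 0.118). Its groups overlapped, and without wild-type culture 1 the adjusted p was 0.0362.

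The 2 Insig genes, whose proteins retain the Scap complex in the endoplasmic reticulum, differed in how even they were. Insig2 stood at 1004, 692 and 754 scaled reads against 1859, 2573 and 1449, and rose 2.40-fold (log2 difference 1.24 ± 0.25, limma adjusted p = 0.0108). Its groups did not overlap. The Insig2 call was lost without wild-type culture 2 (adjusted p = 0.0532) or wild-type culture 3 (0.0504). Insig1 stood at 1699, 397 and 431 scaled reads in cultures labelled wild-type, against 986, 4391 and 774 in cultures labelled c-kitCre. Here 1 culture in each group was 4.11 and 4.99 times the mean of the other 2, and the log2 difference of 1.18 ± 0.84 did not pass (limma adjusted p = 0.324). Without c-kitCre culture 2 it was 0.40 (adjusted p = 0.727), and without wild-type culture 1 it was 1.86 (0.154).

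Scap, the sterol-sensing escort, stood at 1784, 2501 and 2377 scaled reads against 1648, 1353 and 1694, without overlap (log2 difference -0.50 ± 0.17, limma adjusted p = 0.0697), and passed without wild-type culture 1 (adjusted p = 0.0183). Its exons share 13.2% of their bases with the gene model 5830462I19Rik on the opposite strand. Stard4, a carrier that moves cholesterol between membranes, stood at 612, 562 and 593 scaled reads against 308, 531 and 298 (log2 difference -0.69 ± 0.25, limma adjusted p = 0.0765). All c-kitCre cultures were lower, culture 2 the least so, and without that culture the log2 difference was -0.96 (adjusted p = 0.00276).

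Of the 6 genes of fatty acid synthesis, 3 fell, none rose and 3 did not pass, with a median log2 difference of -0.92. Fasn, fatty acid synthase, whose promoter window is shown above (gene at chromosome 11, 120805846 to 120824547), was at 11279.6, 12098 and 12510.1 scaled reads in cultures labelled wild-type, against 4614, 3698 and 5322 in cultures labelled c-kitCre. It fell from 11963 ± 626 to 4545 ± 814 scaled reads (SD), to 38.0% (log2 difference -1.41 ± 0.17, limma adjusted p = 0.00142). The lowest wild-type culture was above every c-kitCre culture by more than the spread of either group. Elovl6, which lengthens the palmitate that Fasn makes, stood at 1669, 1316 and 1261 scaled reads against 571, 240.2 and 682, and fell to 35.2% (log2 difference -1.63 ± 0.40, limma adjusted p = 0.0219). Culture 2 was the lowest of the c-kitCre cultures. The Elovl6 call was lost with no filter on low values (adjusted p = 0.0735), without wild-type culture 1 (0.0745), 2 (0.0757) or 3 (0.0671), and without c-kitCre culture 1 (0.0519).

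The first 2 enzymes of the route did not pass. Acly, which splits citrate to cytosolic acetyl-CoA, stood at 5894, 4286 and 4284 scaled reads against 6932, 4643 and 6405 (log2 difference 0.31 ± 0.21, limma adjusted p = 0.305), with overlapping groups. The sign of the Acly difference turned under median centring over all genes, at -0.04. Acaca, the carboxylase that commits acetyl-CoA to fatty acids, stood at 4948, 4620.4 and 4746 scaled reads against 3631, 1667 and 3710.2, without overlap (log2 difference -0.76 ± 0.32, limma adjusted p = 0.118). Its c-kitCre culture 2 was far below the other 2. Without it the log2 difference was smaller, -0.38, and passed (adjusted p = 0.0177). The longest Acaca transcript is 99.2% identical over 6118 of its 9513 bases to the processed pseudogene Gm5182, for which no level is held.

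The 2 desaturases of the list, which put the first double bond into stearate and palmitate, gave 1 fall and 1 difference that did not pass. Scd1 stood at 7924, 5817 and 6059 scaled reads in cultures labelled wild-type, against 2969, 3534 and 2753 in cultures labelled c-kitCre, and fell to 46.7% (log2 difference -1.09 ± 0.17, limma adjusted p = 0.00418). Scd2 stood at 26789, 19594 and 19729.6 scaled reads against 34723, 26119 and 27265 (log2 difference 0.42 ± 0.22, limma adjusted p = 0.187). The groups did not overlap for Scd1 and overlapped for Scd2. Reads could be shared in part, since 623 bases of Scd2 are 95.5% identical to Scd1. With centring over genes of at least 50 scaled reads the Scd2 difference passed (adjusted p = 0.0386).

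Ratios of paired genes within a culture do not depend on its scale factor. The ratio of Scd1 to Scd2 scaled reads was 0.296, 0.297 and 0.307 in cultures labelled wild-type and 0.0855, 0.135 and 0.101 in cultures labelled c-kitCre. It was nearly constant in cultures labelled wild-type and lower in all 3 c-kitCre cultures, a log2 difference of -1.51, or 2.85-fold. The ratio of Srebf1 to Srebf2 was 1.08, 0.518 and 0.417 against 2.27, 2.14 and 2.01, higher in all 3 c-kitCre cultures, with a log2 difference of 1.79, or 3.47-fold. The exact two-sided permutation test gave p = 0.1 for each of these ratios, the smallest that 3 against 3 cultures allow, and 0.15 after adjustment over 3 ratios. The ratio of Insig1 to Insig2 was 1.69, 0.574 and 0.572 against 0.531, 1.71 and 0.534, so that 1 culture of each group was high, and its log2 difference of -0.07 had an exact permutation p = 0.6 (0.6 adjusted).

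**Figure D3:**
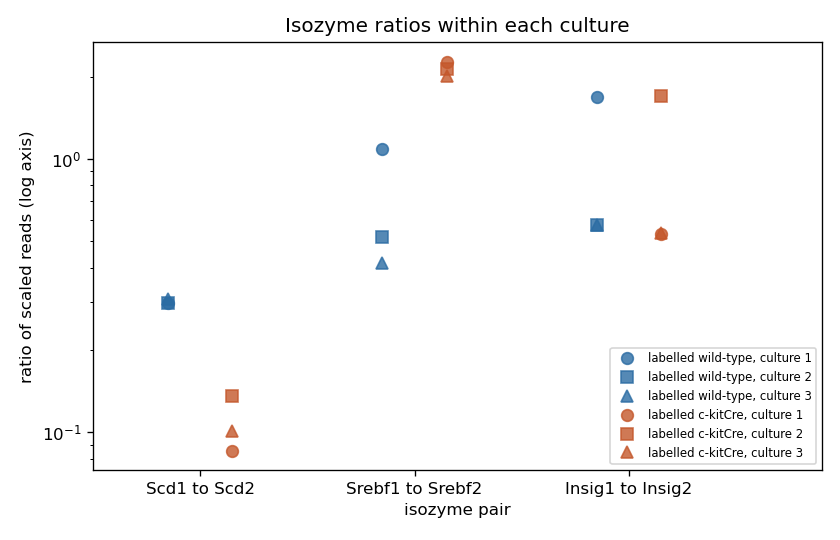
Ratio of scaled reads of 3 gene pairs in each culture, on a log axis; blue marks are cultures labelled wild-type, orange marks those labelled c-kitCre. The groups separate for Scd1 to Scd2 and Srebf1 to Srebf2, while Insig1 to Insig2 is near 1.7 in wild-type culture 1 and c-kitCre culture 2 and between 0.531 and 0.574 in the other 4.

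The unevenness of c-kitCre culture 2 went in both directions. It lay over 1.5 times above the mean of cultures 1 and 3 for 8 of the 30 genes, which were Insig1 (4.99 times), Msmo1 (3.24), Hmgcs1 (1.84), Stard4 (1.75), Insig2 (1.56), Fdft1 (1.53), Lss (1.53) and Idi1 (1.52). It lay over 1.5 times below for Elovl6 (0.384 times), Acaca (0.454), Nsdhl (0.466) and Acat2 (0.642). These 12 genes are 40.0% of the list, against 28.2% of 13456 genes averaging at least 50 scaled reads. Of those 13456 genes, 1557 lay over 1.5 times above and 2231 below. Wild-type culture 1 lay over 1.5 times above the other 2 for 3 genes, Insig1 (4.11), Nsdhl (1.72) and Srebf1 (1.66), and below for none. That is 10.0% of the list against 32.0% of those 13456 genes (2463 above and 1839 below). The median SD of log2 levels over the list was 0.19 in the wild-type and 0.28 in cultures labelled c-kitCre. It was 0.23 and 0.28 over all genes tested, and 0.239 and 0.245 over those 13456 genes. Summed raw values were 22371439 in c-kitCre culture 2, the lowest, 26546087 in c-kitCre culture 3 and 35043499 in wild-type culture 1. The part of depth in the result was not tested.

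**Figure D4:**
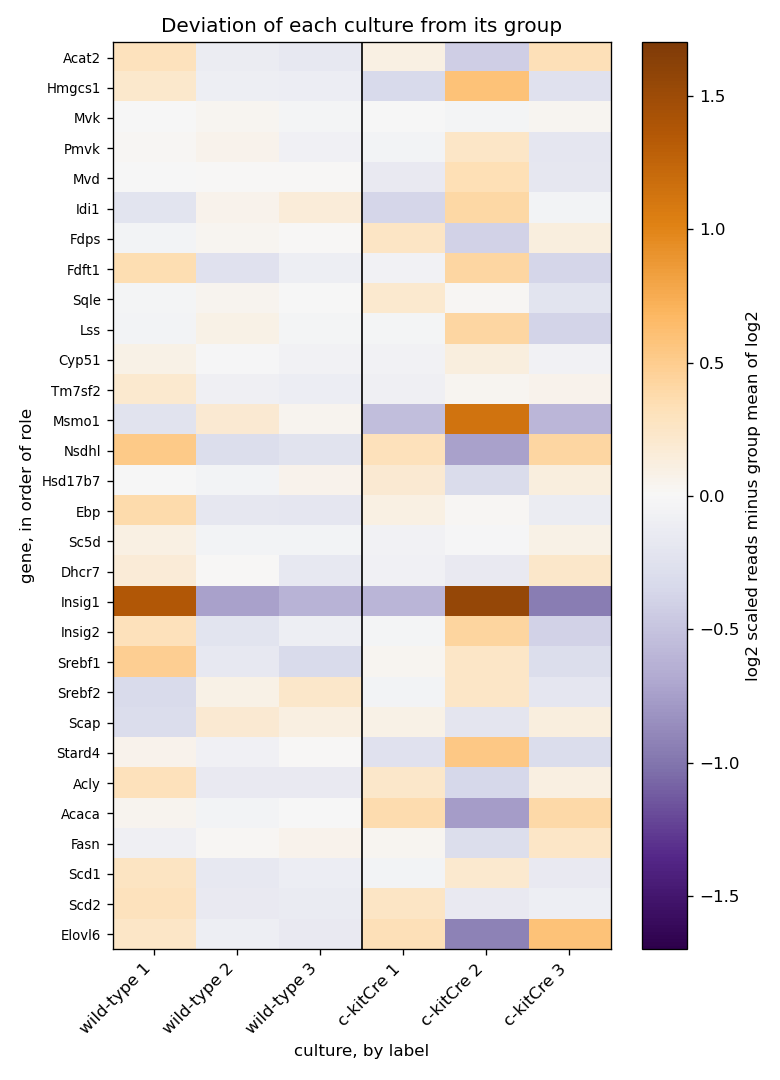
Log2 scaled reads of each gene in each culture minus the mean of its group, as colour, with the genes in order of role and the cultures labelled wild-type left of the line. The strongest colours are Insig1 in wild-type culture 1 and in c-kitCre culture 2, and that c-kitCre culture also shows Msmo1 high and Elovl6, Acaca and Nsdhl low.

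Genes around the synthesis route were examined from 6 further lists, 113 genes tested in all, of which 53 passed (46.9%), against 35.5% of all genes tested. The share of each list below in the main fit is to be read against that 35.5%. Over the 24151 genes tested, quantile normalization gave 9018 calls, 3950 rises and 5068 falls. Median centring over all genes gave 2821 rises and 8605 falls, and centring over genes of at least 50 scaled reads 5488 and 3794. Without c-kitCre culture 2 there were 3922 rises and 4407 falls. Among 5 further genes of the sterol synthesis list, 2 fell and none rose, with a median log2 difference of -0.44. Lbr, a lamin-binding protein that doubles as a sterol reductase, fell from 3546 ± 449 to 2109 ± 253 scaled reads (SD, limma adjusted p = 0.0098). Acat1, the mitochondrial thiolase, did not pass (log2 difference -0.29, limma adjusted p = 0.222). Under median centring over all genes, all 5 passed as lower, with a median of -0.80, and under centring over genes of at least 50 scaled reads it was -0.23.

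Of 21 genes of sterol uptake, efflux and storage, 7 rose and 2 fell (42.9%), with a median log2 difference of 0.37. Abca1, the pump that hands cellular cholesterol to apolipoproteins, stood at 305, 199 and 226 scaled reads in cultures labelled wild-type, against 4184, 2669.6 and 3563 in cultures labelled c-kitCre, a 14.3-fold rise (log2 difference 3.83 ± 0.23, limma adjusted p = 0.000165). Every c-kitCre culture was far above every wild-type one. Ch25h, which makes an oxysterol that inhibits the cleavage of the sterol factors, was at 0, 0 and 0.21 scaled reads against 122, 118 and 127 (limma adjusted p = 0.000102), with no fold given because the wild-type cultures lay at the floor. Lipa, the lysosomal lipase that frees cholesterol from its esters, rose from 697 ± 218 to 3073 ± 467 scaled reads (SD, limma adjusted p = 0.00115). Stard5, a sterol carrier of the same family as Stard4, fell from 995 ± 160 to 248 ± 30.1 (limma adjusted p = 0.000562). The calls of these 4 genes held in all 15 alternative settings. The list gave 4 rises and 3 falls under median centring over all genes (median 0.02), and 5 rises and 2 falls without c-kitCre culture 2 (0.19).

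Of 13 genes that process the sterol factors or degrade sterol enzymes, 2 rose and 5 fell (53.8%), with a median log2 difference of -0.52. The balance depended on scaling, with 3 rises and 3 falls under quantile normalization, 1 and 7 under median centring over all genes (median -0.88), and 3 and 5 under centring over genes of at least 50 scaled reads (-0.31). Erlin1, which helps remove sterol enzymes from the endoplasmic reticulum, stood at 3374, 4663 and 4804 scaled reads against 980, 771 and 820.4, and fell 4.99-fold (limma adjusted p = 0.000347). Rnf139, a ubiquitin ligase of that membrane, fell from 2581 ± 320 to 1079.9 ± 125 scaled reads (SD, limma adjusted p = 0.00135). Paqr3, which tethers the Scap complex in the Golgi, fell from 924 ± 338 to 341 ± 46.3 (limma adjusted p = 0.0185). That call was lost in 6 of 15 alternatives, namely with no filter and without any 1 of the cultures other than wild-type culture 1 (highest adjusted p = 0.0828). Mbtps1, the Golgi protease that makes the first cut in the sterol factors, rose from 4084 ± 862 to 10484 ± 1265 scaled reads (SD, limma adjusted p = 0.0025).

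The isoprenoid branches lead from farnesyl diphosphate to dolichol, ubiquinone and protein prenylation. Of 14 genes, 3 rose and 7 fell (71.4%), with a median log2 difference of -0.43. Median centring over all genes gave 1 rise and 8 falls with a median of -0.78, and centring over genes of at least 50 scaled reads a median of -0.22. Ggps1, which makes geranylgeranyl diphosphate, fell from 1744 ± 90.8 to 661 ± 55.4 scaled reads (SD, limma adjusted p = 0.000424). Dhdds, a subunit of the dolichol-making enzyme, fell from 863 ± 46.0 to 425 ± 63.7 (limma adjusted p = 0.00346). Rce1, the protease that trims prenylated proteins, fell from 864 ± 126 to 452 ± 39.2 (limma adjusted p = 0.00515). Rabggta, a subunit of the transferase that prenylates Rab proteins, rose from 780.4 ± 99.0 to 1838 ± 349 (limma adjusted p = 0.00302).

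Of 39 genes of fatty acid supply, elongation, desaturation and esterification, 6 rose and 15 fell (53.8%), with a median log2 difference of -0.21 that was 0.01 under centring over genes of at least 50 scaled reads and -0.56 under median centring over all genes. Acss2, which makes acetyl-CoA from acetate, stood at 307, 284 and 273 scaled reads against 1206, 1212 and 829 and rose 3.75-fold (limma adjusted p = 0.000777). Elovl4, an elongase of very long chains, was at 2.80, 2.16 and 1.07 scaled reads against 426, 553 and 419.6 (limma adjusted p = 6.37e-05), with the wild-type cultures under the floor of the scale. Hacd2, a dehydratase of the elongation cycle listed as Ptplb, fell from 732 ± 39.0 to 201 ± 13.4 scaled reads (SD, limma adjusted p = 0.000285). Agpat2, an acyltransferase of phospholipid and triglyceride synthesis, fell from 981 ± 90.8 to 363 ± 43.3 (limma adjusted p = 0.000941).

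Of 21 genes of fatty acid oxidation, 2 rose, 2 fell and 17 did not pass (19.0%), with a median log2 difference of 0.25. The sign of that median turned to -0.10 under median centring over all genes, and it was 0.46 under centring over genes of at least 50 scaled reads. Eci1, a mitochondrial isomerase, fell from 1032 ± 55.6 to 615 ± 90.8 scaled reads (SD, limma adjusted p = 0.00862). Ppara, the nuclear receptor of fatty acid oxidation genes, was low, at 11.7, 18.5 and 26.0 scaled reads against 5.24, 6.07 and 4.29 (limma adjusted p = 0.0146). Cpt1c, a brain form of carnitine palmitoyltransferase, rose from 694 ± 175 to 1301 ± 172 (limma adjusted p = 0.0155), and Acads, a short-chain dehydrogenase, from 647 ± 40.8 to 951 ± 123 (limma adjusted p = 0.0251). The calls of Ppara, Cpt1c and Acads were each lost in at least 3 of the 15 alternatives. Scaling set the count of this list, with 8 rises and 2 falls under quantile normalization or centring over genes of at least 50 scaled reads, none and 3 under centring over all genes, and 1 and 1 without c-kitCre culture 2.

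**Figure D5:**
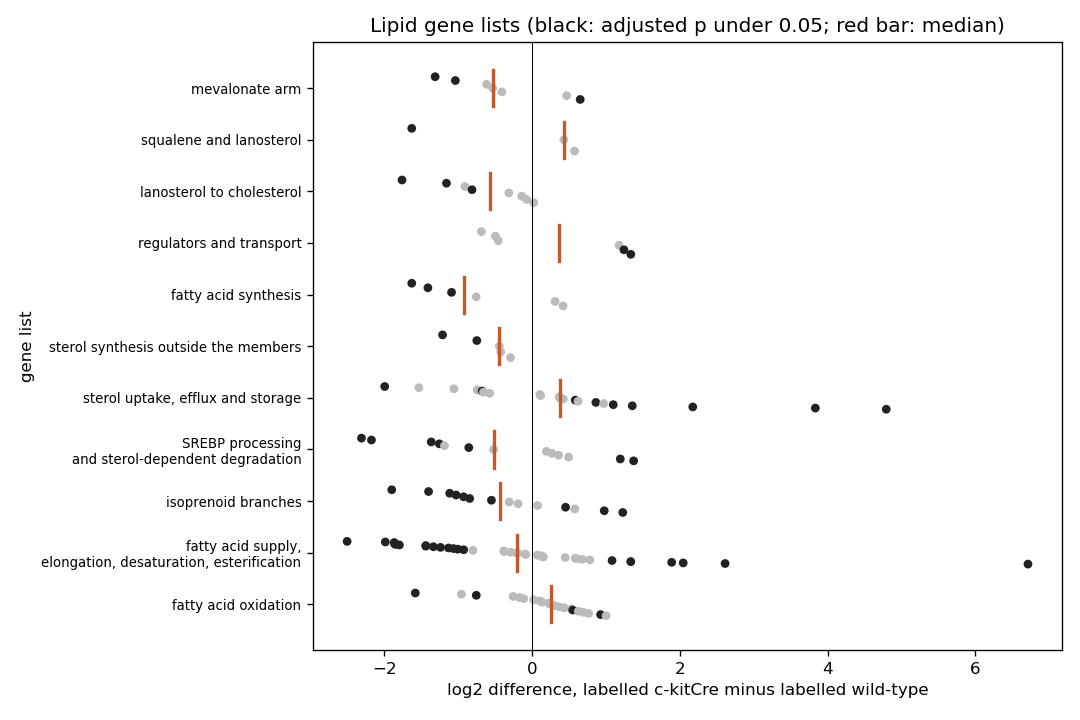
Log2 difference, c-kitCre minus wild-type, of every gene tested in the 5 role groups of the 30 genes and in 6 surrounding lists, with black points at a limma adjusted p under 0.05, grey points at 0.05 or more, and a red bar at the median. The fatty acid synthesis group has its median at -0.92 and the sterol uptake, efflux and storage list at 0.37, where Abca1 is the point at 3.83, while Ch25h and Elovl4, at the floor in wild-type cultures, are drawn as distances from that floor.

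The authors' deposited table of changed genes holds 5 of the 30 genes. The share of all genes that it holds and its rule of entry are not given here. Absence from it is thus not read as no change. In the authors' deposited table the signed fold, positive where wild-type is higher, is 3.39 for Cyp51, 3.095 for Sqle, 3.09 for Elovl6, 2.66 for Fasn and -2.52 for Srebf1.

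Among marker lists of other cell types, only that of fibroblasts moved as a whole between the groups. Summed scaled reads of 6 fibroblast markers were 7558 to 12551 in the wild-type and 116632 to 176089 in cultures labelled c-kitCre, and all 6 rose. Summed reads of 5 mesothelial markers were 6363 to 8106 against 141 to 198, of 6 cardiomyocyte markers 1485 to 3625 against 159.5 to 184, and of 8 leukocyte markers 801 to 1506 against 322 to 439.6. In each of these 3 lists 1 abundant gene carried the lower sum: Msln (mean 6950.1 against 43.5), Tnnt2 (2194 against 122) and Cd14 (887 against 129) were the only genes of their lists to fall. Wt1 of the mesothelial and Ryr2 of the cardiomyocyte list rose, and the median log2 differences of the tested genes were 0.33, 0.26 and 0.18 in that order. Markers of adipocytes, cells best known for storing fat, summed to 337 to 536 against 326 to 456. None of the 6 tested passed, and 3 of 9, the defining Adipoq, Plin1 and Lep, were under 5 scaled reads in all cultures. Endothelial markers summed to 506 to 847 against 882 to 1046. Only 1 of these 6 rose and 5 did not pass, and 2 had a negative difference (median log2 difference 0.26). Mast cell markers summed to 32.5 to 106 against 36.7 to 53.5 with 2 of 6 at 0 in all cultures, and 8 cardiac stem cell markers to 4483 to 5218 against 6193 to 6622. Of these 8, 5 rose and 1, Ly6a, fell, and their median log2 difference was 1.97. Kit is among them, and without it the other 7 summed to 4482 to 5214 against 4587 to 4890.1. The part of these markers' cells in the lipid gene differences was not tested.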

How the data were processed

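RNA of 6 cultures was depleted of ribosomal RNA and sequenced as 12 libraries with paired reads of 100 bases, per the labels' protocols. The submitters' processing notes name DESeq and the build mm10, and no version. No aligner, counting annotation or strand setting is named (not given in the sources used here). Raw and normalized values per culture, each merging 2 libraries, stand side by side, per the file headers. The deposited raw values are a signal that is not whole, so no count test was run. The deposited normalized values are log2 values: the log2 of raw times a scale factor per culture (0.825 to 1.517), floored at 4.41 scaled reads and shifted by 1 constant for each gene, as worked out from the values. Of 89412 values checked for this form, in genes with a culture over 50 scaled reads, 794 (0.888%) were off it, so the deposited values themselves were used. A second deposited table gives the authors' signed fold as a score, positive where wild-type is higher.

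The constant was added back, and limma 3.58.1 (R 4.3.3, eBayes with trend, two-sided, no covariates, 4 residual degrees of freedom) compared 3 with 3 cultures. Left out were 10023 genes that averaged less than 1 scaled read or stayed on the floor in each of the 6 cultures, and p-values were adjusted by Benjamini-Hochberg over 24151 genes. No interval is given for single values, because the reads behind a merged value are not known. Gene IDs were matched to GENCODE M21 (32874 matched, 1300 not). Exon overlaps and copies (at least 95% identity over 200 bases) come from that annotation. The fit was tested on simulated data.

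The genes and the lists were chosen with earlier results of these data known. The naming rule takes all 30 genes, up to 4 genes with the smallest p from each further list, and every gene of the list of further sterol enzymes. Of the latter list 3 genes are not reported here. The deviations of same-numbered cultures from their group means had correlations of 0.124, -0.009 and 0.19. Correlations this weak, within groups of 3, cannot settle whether the numbers pair the cultures, and the labels do not say. The main fit did not pair them. Alternatives were other filters, pseudocounts of 1 and 5, quantile normalization, 2 median centrings, scaling to summed raw values, a replicate block and leaving out each culture. Tables were made in Python 3.11.15 with numpy 2.4.6, pandas 2.3.3 and scipy 1.17.1, and plots with matplotlib 3.10.9.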

Additional observations from a re-analysis of the deposited data

How the results depend on the processing

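The differences, counts and median of the 30 genes and the counts of all and of other pathway genes were recomputed under 15 alternatives, the ratios under 8, and the counts of single lists under 5. Ranks per kilobase, marker sums and counts of cultures apart were not. Of 450 values of the 30 genes, 405 kept their sign and their side of the threshold, 15 lost and 20 gained a call, and 10 changed sign. Of the 12 genes called, 8 kept the call in all 15, the exceptions being Pmvk, Ebp, Insig2 and Elovl6. The count of 12 became 19 under median centring over all genes and 8 to 16 when a culture was left out. The median log2 difference of the list, -0.48, became -0.32 under quantile normalization, -0.83 under median centring over all genes, -0.26 under centring over genes of at least 50 scaled reads and -0.52 to -0.39 when a culture was left out. Leaving out a culture gave 5685 to 9061 genes in all against 8578, and 33 to 59 other pathway genes against 53, with the fewest in both without wild-type culture 2 and 35 pathway genes without wild-type culture 3. These genes changed sign: Tm7sf2 (0.02) was -0.12 under quantile normalization, -0.33 under centring over all genes, and -0.036 to 0.124 when a culture was left out (-0.024, -0.036 and -0.0077 without wild-type culture 2, wild-type culture 3 and c-kitCre culture 3). Acly (0.31) was -0.0437 under centring over all genes. Nsdhl was 0.18 without wild-type culture 1, 0.29 without c-kitCre culture 2 (-0.287 to 0.291 over the cultures left out) and 0.14 under centring over genes of at least 50 scaled reads, where Dhcr7 was 0.072. The ratio of Insig1 to Insig2 ran from -0.63 to 0.45 when a culture was left out, being 0.45 without wild-type culture 1, 0.22 without c-kitCre culture 1 and 0.21 without c-kitCre culture 3. The cause of these changes was not tested. With the culture number as a replicate block, 12 of the 30 genes, 8123 genes in all and 50 other pathway genes passed, and no call among the 30 changed. Where a group is left with 2 cultures the test keeps fewer degrees of freedom, and for the ratios the smallest exact p is 0.1. Depth differs between cultures and is lowest in c-kitCre culture 2.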
